A study of Mus musculus with 8 samples.

Results

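The enzymes described here are the cytochrome P450, glutathione S-transferase, UDP-glucuronosyltransferase, sulfotransferase and carboxylesterase genes of mouse jejunal epithelial cells, read in conventionalized against germ-free animals. Of the 48440 genes in the deposited table, 180 protein-coding genes carried a symbol of these families. The 95 with a mean of at least 1 CPM (signal scaled to a common library total) over all 8 libraries are the members, and the other 85 were below that level, 5 of them at 0 in every library. The level over all libraries chose the members, and the contrast between the groups did not enter that choice. The members were 43 P450 genes (22 of the Cyp2 family, 4 of Cyp3, 10 of Cyp4 and 7 others), 21 Gst, 11 Ugt, 8 Sult and 12 Ces genes. Ces1b (mean of 1.05 CPM), Cyp2b19 (1.05 CPM) and Sult6b2 (1.08 CPM) lay just inside the minimum, and Cyp2c29 (0.995 CPM), Cyp27b1 (0.946 CPM) and Cyp26a1 (0.941 CPM) just outside it.

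RNA came from 8 female mice on C57BL/6J, all carrying the Sox9-EGFP transgene, whose fluorescence reports Sox9, a transcription factor of crypt cells, and all raised germ-free. In each of 4 littermate pairs (A to D), the conventionalized (CV) animal was moved at 8 to 10 weeks of age to a conventional facility, gavaged with a fecal slurry and studied after 2 weeks, and the germ-free (GF) littermate stayed germ-free. Colonization and the change of housing therefore cannot be told apart. Jejunal epithelial cells with a low reporter signal were sorted, with a gate that removed cells staining for CD45, CD31, Sytox-blue or Annexin-V, and each animal gave 1 library. Such bulk libraries do not tell fewer cells of a type from less RNA per cell.

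Enzymes of foreign-compound metabolism act in stages. P450s and carboxylesterases oxidize or hydrolyse a compound, which is the first phase, and transferases then attach glutathione, glucuronic acid or sulfate, which makes it easier to export. The small intestine is the first epithelium that food-borne and microbial compounds meet, and its enzyme genes are known targets of ligand-activated receptors such as AHR, PXR and CAR and of the oxidant-responsive factor NRF2. The Cyp1 genes are the classical readout of AHR, and Cyp3a11 that of PXR in mouse liver and gut.

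Depth, on an approximate read scale, ran from 6209041 reads (GF, pair C) to 19139763 reads (CV, pair D). Values below are CPM scaled with TMM factors, a per-library correction for differences in composition, and fold changes are log2 of CV over GF from limma on log2(CPM + 0.5). A gene was tested where 4 or more libraries reached 10 CPM, which left 10053 genes, and a gene is called at a Benjamini-Hochberg adjusted p under 0.05 over all of them. The CV library of pair A and the GF library of pair C stood apart. The first had the highest CV value in 48 of the 95 members (50.5%, against 34.2% of all tested genes, where the CV library of pair D was more often the highest, at 40.2%), and the second the lowest GF value in 45 of them (47.4%, against 55.7%). The summed goblet-cell marker level was 52800 CPM in the CV library of pair A, against 2629 to 7427 CPM in the other CV libraries and 5111 to 9142 CPM in the GF libraries.

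Gstp1, a pi-class glutathione transferase, and Gsto1, an omega-class one, were the most abundant members per length of exon, at 413 and 342 CPM per kilobase over all libraries. The length is that of all annotated exons of a gene merged, which can exceed that of a single transcript, and the order below rests on it. Gstt1 followed with 102 and Cyp4b1, the most abundant P450, with 98.1 CPM per kilobase. Gstm1, Gstm5, Ugt1a1, Cyp2c65, Cyp2c68, Gstp2 and Ces2e came next, between 65.7 and 42.8 CPM per kilobase. In CV libraries the level of Cyp4b1 was 38.1 CPM per kilobase, below those of Gstm1 (74.1), Gstm5 (72.7) and Ugt1a1 (67.5), and in GF libraries it was 158 CPM per kilobase, against 57.3, 40.2 and 36.2 for those 3 genes. Genes of the Cyp1 family were near 0. Cyp1a1 lay between 0 and 0.936 CPM in CV libraries and between 0 and 1.15 CPM in GF libraries, Cyp1b1 between 0 and 0.555 CPM in CV and between 0.179 and 0.638 CPM in GF libraries, and Cyp1a2 reached 0.0669 CPM in 1 CV library and was listed at 0 in the others.

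Of the members, 7 P450 and glucuronosyltransferase genes were called lower in CV than in GF animals, and no member was called higher. They were Cyp4b1, Cyp2c68, Cyp2c65, Cyp3a11, Cyp2f2 and Cyp2d26 among the P450s and Ugt1a9 among the glucuronosyltransferases, with GF levels 2.86 to 5.09 times those of CV in the fit. Of the 95 members, 52 passed the 10 CPM filter and 43 did not. Against the 7 members called lower, 3.76% of all genes tested were called lower, and against the 0 called higher, 1.16% of all genes were called higher. At an unadjusted p under 0.05, 8 members were higher and 8 lower. The share of all tested genes at that threshold was not counted, so these 2 counts cannot be set against a background. Members that pass such a filter only through the group where they are high had to differ, and Cyp3a11 was the 1 tested member that reached 10 CPM in GF libraries only, while 31 reached it in all 8 libraries.

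A fit over every gene with a mean of at least 1 CPM tested all 95 members among 18914 genes. It called 0 members higher, against 0.555% of all genes, and 6 lower, against 2.28%, with Cyp2f2 lost at an adjusted p of 0.0582. In that fit 40 members had a positive and 55 a negative log2 fold change, with a median of -0.12 beside -0.0034 over all genes. By class, of the 22 Cyp2 genes 3 were positive and 19 negative (median -0.52), of all 43 P450 genes 12 and 31 (median -0.30), of 21 Gst genes 12 and 9 (median 0.53), of 11 Ugt genes 7 and 4 (median 0.53), of 8 Sult genes 2 and 6 (median -0.32) and of 12 Ces genes 7 and 5 (median 0.12). The Cyp2 count was the same with library-size and upper-quartile scaling and was 4 and 18 without the CV library of pair A and the GF library of pair C. The medians of Gst, Ugt and Ces turned negative without those 2 libraries, to -0.06, -0.04 and -0.47, and that of Ces also with library-size scaling (-0.11, with all genes at -0.20). Signs differed with level: 70.2% of the 10053 genes of the 10 CPM fit were positive, against 49.9% of the 18914 genes here. The classes differ in level too. Under the 10 CPM filter were 13 of the 22 Cyp2, 23 of the 43 P450, 5 of the 8 Sult and 5 of the 21 Gst genes. Among tested members, Cyp2 had 1 positive and 8 negative, all P450 genes 8 and 12, Sult 1 and 2 and Gst 12 and 4. The part of level in the class counts was not tested. No test was made on these lists.

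**Figure D1:**
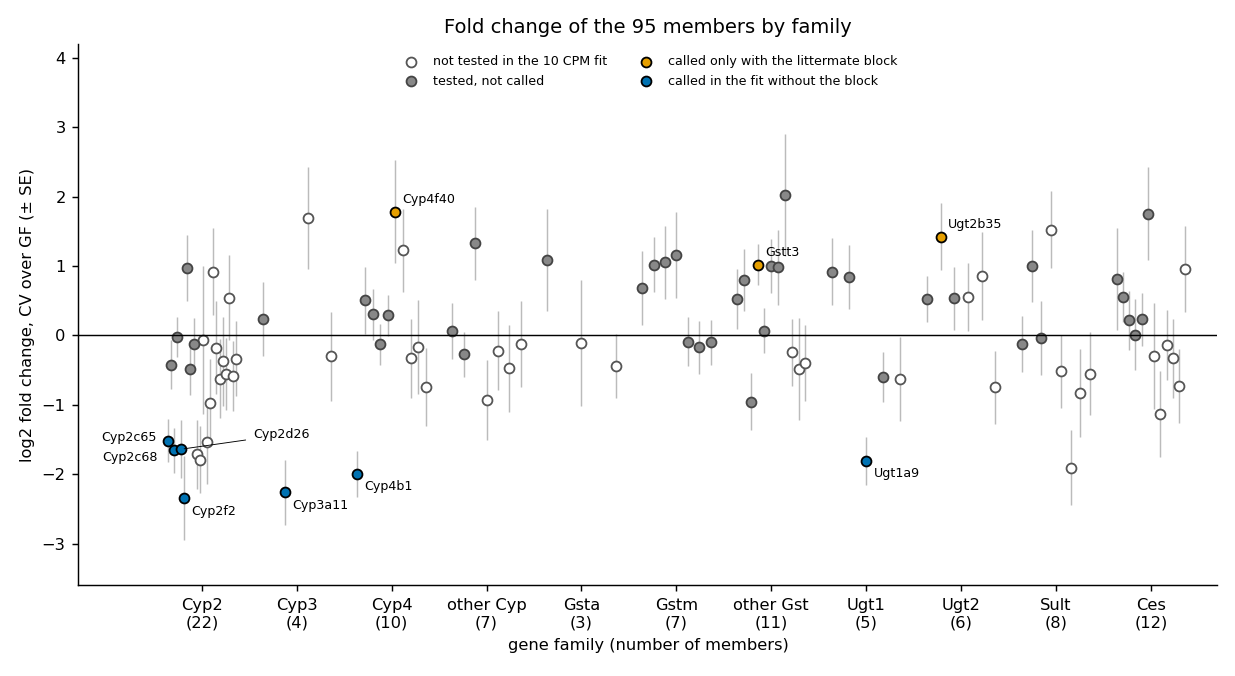
Log2 fold change of CV over GF (vertical axis, ± SE) of the 95 members, grouped by gene family (horizontal axis, number of members in brackets), from the fit over all genes with a mean of at least 1 CPM. Blue points are the 7 members called lower in the 10 CPM fit, orange points the 3 members called higher once the littermate pair is a term, gray points the other tested members and open points the 43 members below the 10 CPM filter. Of the 22 Cyp2 points 19 lie below 0, and 13 of the 22 are open points.

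Cyp2c65 and Cyp2c68 lie in the same cluster on chromosome 19 and are members of the Cyp2c subfamily that oxidizes drugs and polyunsaturated fatty acids. Cyp2c65 (ENSMUSG00000067231, chr19:39061015-39093944, plus strand, GRCm38) had 71.4, 32.3, 45.8 and 51.9 CPM in the CV libraries of pairs A to D, against 182, 107, 154 and 126 CPM in the GF libraries. Cyp2c68 (ENSMUSG00000074882, chr19:39688834-39741054, minus strand) had 59.5, 27.7, 34.6 and 36.8 CPM in CV libraries, against 173, 105, 145 and 81.3 CPM in GF libraries. For both genes every CV library lay below every GF library, and pair A was the highest of its group in CV and in GF. The log2 fold changes were -1.52 ± 0.30 (SE, adjusted p = 0.0127) for Cyp2c65 and -1.65 ± 0.32 (adjusted p = 0.0108) for Cyp2c68, lower in CV in 4 of 4 pairs. Without the CV library of pair B they just missed the threshold, at adjusted p = 0.0598 and 0.0507. Of the 100-base windows of Cyp2c68 transcripts, 19.8% are shared with Cyp2c40, Cyp2c69 or Cyp2c67, and of those of Cyp2c65 7.82% with Cyp2c66, so that reads could be split between these genes by the authors' counting.

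The upstream sequences of these genes are shown because both were called lower and share a stretch of letters. RefSeq windows (GRCm38.p6, up to 250 bases before the start) were found for 81 of the 95 members, 97 windows in all, and were searched on both strands for the letters of known binding motifs. For the nuclear receptor HNF4 these were CAAAGTCCA and, inside it, the shorter core motif CAAAGT. For HNF1, a homeodomain factor of gut and liver, the single site GTTAAT was searched. For CDX2, the intestinal homeobox factor, the letters were TTTATNG. For the zinc finger factors of the GATA family they were AGATAA. For the receptor AHR the core GCGTG was used, and for NRF2 the antioxidant response element TGACNNNGC. CAAAGTCCA was found in 3 of the 7 called members (Cyp2c65, Cyp2c68 and Cyp3a11), in 5 of the 81 members with a window and in 0.384% of 32851 windows of all genes. Members are counted by gene and all genes by window, here and below. By window, 5 of the 97 member windows held CAAAGTCCA (5.15%). Cyp2c65 and Cyp2c68 are related genes of the same cluster. In the sequences below, read 5′ to 3′ along the gene, capitals mark CAAAGTCCA.
Cyp2c65 (chr19:39060880-39060908, plus strand): gatgttggaaCAAAGTCCActgggaggag
Cyp2c68 (chr19:39741160-39741188, minus strand): atcattgaaaCAAAGTCCAattggaagag
Cyp3a11 (chr5:145879945-145879973, minus strand): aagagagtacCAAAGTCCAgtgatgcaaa
The match begins 116 bases before the RefSeq start of Cyp2c65, 77 bases before that of Cyp2c68 and 109 bases before that of Cyp3a11. The whole Cyp3a11 match lies within the first transcribed bases of the GENCODE annotation, so it is upstream of the RefSeq start only. The other members with this motif were Cyp2c70 and Cyp8b1, both under the 10 CPM filter. The core CAAAGT was found in those 3 and Cyp2d26, in 21 of 81 members and in 12.6% of all windows. GTTAAT was found in Cyp2c68, Cyp2d26 and Ugt1a9, in 13 of 81 members and in 6.43% of all windows. AGATAA was found in Ugt1a9 alone of the called members, in 16 of 81 members and in 9.99% of all windows, and GCGTG in Cyp2c68 alone of the called members, in 16 of 81 members and in 28.2% of all windows. Neither TTTATNG (8 of 81 members, 9.81% of all windows) nor TGACNNNGC (5 of 81 members, 10.2%) was found in any of the 7 called members. By window, the shares of the member windows were 22.7% for CAAAGT, 13.4% for GTTAAT and 17.5% each for AGATAA and GCGTG. For TTTATNG the share was 9.28% and for TGACNNNGC 5.15%. These are matches of letters only.

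The whole windows of the Cyp2c pair follow, with capitals for CAAAGTCCA and for either strand of GTTAAT. The shared stretch begins 116 bases before the RefSeq start in Cyp2c65 and 77 bases before it in Cyp2c68.
Cyp2c65 (chr19:39060756-39061005, plus strand): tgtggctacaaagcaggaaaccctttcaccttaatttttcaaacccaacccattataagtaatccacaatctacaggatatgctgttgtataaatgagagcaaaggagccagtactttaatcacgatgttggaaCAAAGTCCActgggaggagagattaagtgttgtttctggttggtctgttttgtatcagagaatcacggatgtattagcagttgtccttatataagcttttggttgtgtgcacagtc
Cyp2c68 (chr19:39741102-39741351, minus strand): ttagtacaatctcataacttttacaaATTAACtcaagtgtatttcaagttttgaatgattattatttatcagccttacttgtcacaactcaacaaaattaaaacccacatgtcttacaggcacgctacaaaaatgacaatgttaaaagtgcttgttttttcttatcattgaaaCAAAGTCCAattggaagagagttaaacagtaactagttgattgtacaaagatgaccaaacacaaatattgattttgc

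Cyp4b1, an extrahepatic P450 that hydroxylates fatty acids and activates the lung toxin ipomeanol, had the lowest adjusted p of the 52 tested members. Cyp4b1 (ENSMUSG00000028713, chr4:115624725-115647723, minus strand) had 69.7, 70.1, 100.0 and 104 CPM in the CV libraries of pairs A to D, against 541, 297, 356 and 230.4 CPM in the GF libraries. No CV library reached the lowest GF library, and the GF library of pair A stood well above the others. The log2 fold change was -1.998 ± 0.33 (SE, adjusted p = 0.00587), and it was called in all 8 fits that left out 1 library, with an adjusted p of at most 0.0258. Pseudogenes of the gene share 4.46% of its 100-base windows.

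The upstream window of Cyp4b1, shown as the counterpart that holds none of the searched motifs, spans the bases before its start.
Cyp4b1 (chr4:115647724-115647971, minus strand): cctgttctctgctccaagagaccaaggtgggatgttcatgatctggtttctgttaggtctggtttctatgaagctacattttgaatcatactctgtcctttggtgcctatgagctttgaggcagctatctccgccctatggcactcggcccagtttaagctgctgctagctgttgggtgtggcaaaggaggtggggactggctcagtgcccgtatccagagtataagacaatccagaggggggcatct

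Cyp3a11, the main drug-oxidizing P450 of mouse liver and small intestine, was low in these sorted cells. Cyp3a11 (ENSMUSG00000056035, chr5:145854426-145879964, minus strand) had 4.23, 1.62, 4.87 and 3.42 CPM in CV libraries of pairs A to D, against 26.8, 10.6, 32.8 and 10.6 CPM in GF libraries. The groups did not overlap, which followed from the filter, since only the GF libraries reached 10 CPM. Pairs A and C were the high ones in both groups. The log2 fold change was -2.26 ± 0.50 (SE, adjusted p = 0.0203), and the call was lost without the CV library of pair B (0.0657) and without the GF library of pair A (0.0767). Its close relative Cyp3a13, which is expressed outside the liver, had 51.5, 9.33, 7.76 and 11.4 CPM in CV libraries, against 26.5, 8.73, 8.61 and 11.1 CPM in GF libraries. Apart from pair A those values were alike between the groups, and the log2 fold change was 0.23 ± 0.55 (adjusted p = 0.793). The ratio of Cyp3a11 to Cyp3a13 was 0.0822 to 0.627 in CV libraries, against 0.954 to 3.82 in GF libraries, without overlap. This ratio, like those below, was formed after the values were seen and was not tested.

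Cyp2f2, known from mouse lung for activating naphthalene, and Cyp2d26, a member of the Cyp2d subfamily of drug-oxidizing enzymes, were the remaining called P450s. Cyp2f2 (ENSMUSG00000052974, chr7:27119909-27133660) had 7.74, 2.97, 26.1 and 22.9 CPM in CV libraries of pairs A to D, against 89.7, 58.1, 92.2 and 23.8 CPM in GF libraries. Cyp2d26 (ENSMUSG00000022445, chr15:82790101-82794294) had 44.9, 8.46, 23.5 and 25.5 CPM in CV libraries, against 103, 73.4, 69.4 and 44.3 CPM in GF libraries. The groups of both genes overlapped, Cyp2f2 through the GF library of pair D, which was nearly equal to its littermate, and Cyp2d26 through the CV library of pair A. The log2 fold changes were -2.35 ± 0.60 (SE, adjusted p = 0.0397) for Cyp2f2 and -1.64 ± 0.43 (adjusted p = 0.0453) for Cyp2d26. Of the 8 fits without 1 library, 1 called Cyp2f2 (that without the GF library of pair D) and 3 called Cyp2d26, with adjusted p up to 0.274 and 0.117. Without the CV library of pair A and the GF library of pair C together, the adjusted p of Cyp2f2 was 0.377.

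**Figure D2:**
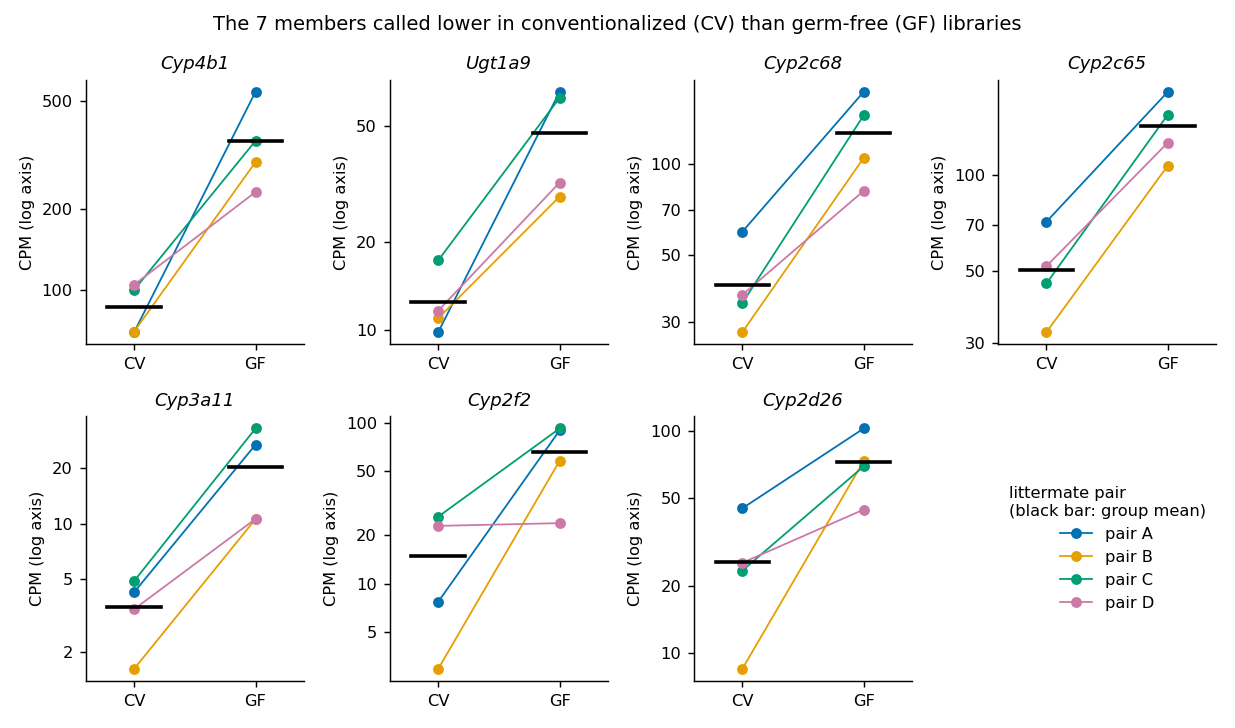
TMM-scaled CPM (vertical log axes) in CV and GF libraries for the 7 members called lower in CV. Each point is 1 library, lines join littermates (pairs A to D) and black bars are group means. Every line runs upward to GF, and in 5 of the 7 genes the highest CV point lies below the lowest GF point. For Cyp3a11 this followed from the 10 CPM filter.

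Over the 10053 tested genes, TMM scaling gave a median log2 fold change of 0.32, and scaling by library size alone gave 0.09. Relative to the 0.32, the 7 called members lay between -1.84 (Cyp2c65) and -2.67 (Cyp2f2). All 7 were called with each of the scalings tried. Without the CV library of pair A and the GF library of pair C, 9 named members that were not called changed sign, to negative (Cyp3a13, Cyp4f14, Cyp4f16, Gsta4, Gstm1, Ugt1a7c, Ugt2a3, Ces2e and Ces2a).

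The other tested Cyp2 genes, Cyp2s1, Cyp2j6, Cyp2e1, Cyp2u1 and Cyp2j9, were not called. Cyp2s1, an epithelial P450, had 139, 39.8, 56.8 and 73.4 CPM in CV libraries, against 101, 79.1, 84.1 and 111 CPM in GF libraries, and its log2 fold change was -0.42 ± 0.35 (SE, adjusted p = 0.426). In 3 of the 4 pairs the CV value was the lower one. Of the 43 members under the filter, 3 had every CV library below every GF library (Cyp2j5, Cyp2d22 and Sult4a1), and 0 had every CV library above. The share of all genes under the filter was not counted, so these counts cannot be set against a background. Cyp2j5 ranged from 1.23 to 3.54 CPM in CV libraries, against 5.52 to 19.4 CPM in GF libraries, and Cyp2d22 from 0.962 to 3.36 CPM, against 5.29 to 15.4 CPM. In the fit over all genes with a mean of at least 1 CPM, Cyp2j5 and Cyp2d22 missed the threshold. Their log2 fold changes were -1.72 (adjusted p = 0.0776) and -1.79 (adjusted p = 0.0592). Over all tested members, 5 had every CV library below every GF library, all of them called, beside 5.88% of all genes, and 3 had every CV library above (Gstt3, Gstt2 and Ugt2b35), beside 9.03% of all genes. Of those 5, Cyp3a11 reached 10 CPM in GF libraries only, so its lack of overlap followed from passing the filter.

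The Cyp4f genes, which hydroxylate leukotrienes and long-chain fatty acids, were not called in the fit without pairs. Cyp4f14 had a log2 fold change of 0.50 ± 0.50 (SE, adjusted p = 0.499) and Cyp4f16 of 0.31 ± 0.37 (adjusted p = 0.588). Cyp4f40 had 94.4, 13.7, 11.1 and 14.8 CPM in CV libraries of pairs A to D, against 12.4, 16.1, 1.49 and 3.50 CPM in GF libraries. The CV library of pair A was far above the rest, and in pair B the CV value was the lower one. Its log2 fold change of 1.78 ± 0.74 had an adjusted p of 0.150, and of 0.0383 with the littermate pair as a block. Without the CV library of pair A the fold change was 1.06. Of the P450s of sterol metabolism, the mitochondrial hydroxylase Cyp27a1 had 0.06 ± 0.41 (adjusted p = 0.926) and the oxysterol hydroxylase Cyp39a1 averaged 14.0 ± 2.77 CPM in CV libraries and 6.77 ± 4.71 CPM in GF libraries (SD, n = 4 each), with a log2 fold change of 1.33 ± 0.56 (adjusted p = 0.154). Cyp20a1, whose substrate is not known, had -0.27 ± 0.31 (adjusted p = 0.567), and Cyp3a25, below the filter, had 1.69 in the fit over all genes with a mean of at least 1 CPM (adjusted p = 0.205).

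Ugt1a9, which glucuronidates phenols, was the 1 Ugt1 member called, and it was lower in CV. Ugt1a9 (ENSMUSG00000090175, chr1:88070800-88218997, plus strand) had 9.82, 10.96, 17.3 and 11.6 CPM in CV libraries of pairs A to D, against 65.2, 28.6, 62.2 and 31.9 CPM in GF libraries. No CV library reached the lowest GF library, and the GF libraries of pairs A and C were the high ones. The log2 fold change was -1.81 ± 0.34 (SE, adjusted p = 0.00939), called in all 8 fits without 1 library. Ugt1a1, the bilirubin-conjugating enzyme (ENSMUSG00000089960, chr1:88211959-88218997), had 298, 84.7, 88.7 and 129 CPM in CV libraries, against 121, 111, 25.5 and 64.5 CPM in GF libraries. These groups overlapped, with the CV value higher in pairs A, C and D, and the log2 fold change was 0.92 ± 0.50 (adjusted p = 0.232). Ugt1a7c had 0.84 ± 0.48 (adjusted p = 0.244) and Ugt1a6a -0.59 ± 0.36 (adjusted p = 0.273).

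The Ugt1 genes use their own first exon and share the later ones, so reads from the shared exons have to be divided among them. Of their 100-base windows, 58.5% are shared with other genes in Ugt1a9, 77.4% in Ugt1a1, 68.8% in Ugt1a7c and 35.1% in Ugt1a6a. The split below rests on that division by the authors' quantification. Ugt1a9 held 1.86%, 6.50%, 9.72% and 5.19% of the summed signal of the 5 Ugt1 members in CV libraries of pairs A to D, against 21.4%, 12.7%, 47.5% and 18.6% in GF libraries. Its share was below every GF value in every CV library. Ugt1a1 held 53.5 ± 4.01% in CV libraries and 36.5 ± 12.5% in GF libraries (SD, n = 4 each), with every CV library above every GF library. The nearest values were 49.9% (CV, pair C) and 49.3% (GF, pair B). The shares are parts of 1 sum, so a lower share of Ugt1a9 raises the others, and that of Ugt1a1 is no separate result. The ratio of Ugt1a9 to Ugt1a1 was 0.0329 to 0.195 in CV libraries and 0.257 to 2.44 in GF libraries.

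The window before the start of Ugt1a9 is shown because Ugt1a9 was the 1 gene of the locus that was called, on its gene-level value. Capitals mark GTTAAT, here on the opposite strand, and the match to AGATAA is left in lower case.
Ugt1a9 (chr1:88070529-88070778, plus strand): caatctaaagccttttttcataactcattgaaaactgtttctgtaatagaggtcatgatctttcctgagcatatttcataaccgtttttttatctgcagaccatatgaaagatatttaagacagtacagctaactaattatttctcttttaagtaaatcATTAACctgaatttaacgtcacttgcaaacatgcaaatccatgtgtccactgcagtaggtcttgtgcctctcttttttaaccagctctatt

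Of the Ugt2 genes, which glucuronidate steroids and bile acids among other compounds, none was called without the pairs. Ugt2b35 had 34.1, 37.4, 28.9 and 36.2 CPM in CV libraries of pairs A to D, against 12.1, 25.5, 3.21 and 22.1 CPM in GF libraries. Every CV library was above every GF library, and the GF library of pair C was the lowest. The log2 fold change of 1.42 ± 0.50 had an adjusted p of 0.111, and of 0.0388 with the littermate block, and without the GF library of pair C the fold change was 0.82. Ugt2b34 had 0.52 ± 0.33 (adjusted p = 0.285) and Ugt2a3 0.53 ± 0.46 (adjusted p = 0.438).

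With the littermate pair as a block, 3 members were called higher in CV (Gstt3, Ugt2b35 and Cyp4f40), beside 8.08% of all tested genes, and the same 7 were called lower, beside 5.02% of all genes. In the block fit over all genes with a mean of at least 1 CPM, Gstt3 and Cyp4f40 were called higher, beside 2.29% of all genes, and 8 members lower, the 7 and Cyp2d22 (adjusted p = 0.0407), beside 2.87%.

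Gstt1 and Gstt3, theta-class glutathione transferases that lie side by side on chromosome 10, had fold changes of opposite sign. Gstt3 had 161, 143, 101 and 155 CPM in CV libraries of pairs A to D, against 68.4, 93.6, 49.8 and 66.5 CPM in GF libraries. Gstt1, known for conjugating small halogenated compounds, had 77.2, 72.5, 111 and 131 CPM in CV libraries, against 384, 248, 140.1 and 87.0 CPM in GF libraries. The groups of Gstt3 did not overlap, and those of Gstt1 overlapped through pair D, where the CV animal was the higher one. Neither was called in the fit without pairs. Gstt3 had a log2 fold change of 1.02 ± 0.29 (SE, adjusted p = 0.0589) and was called with the block (0.0258), with library-size scaling (0.0356) and with upper-quartile scaling (0.0336). Gstt1 had -0.96 ± 0.42 (adjusted p = 0.164). Their ratio, Gstt1 over Gstt3, was 0.479 to 1.09 in CV libraries and 1.31 to 5.62 in GF libraries. Gstt2, from the same cluster, averaged 128 ± 29.8 CPM in CV libraries and 69.9 ± 31.2 CPM in GF libraries (SD, n = 4 each), with a log2 fold change of 0.998 ± 0.39 (adjusted p = 0.139).

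Gsto1 and Gstp1, the most abundant members, were not called. Gsto1 had 1047, 557, 596 and 966 CPM in CV libraries of pairs A to D, against 880.1, 782, 251 and 449 CPM in GF libraries. Gstp1 had 1144, 514, 579 and 938 CPM in CV libraries, against 606, 709.8, 186 and 437 CPM in GF libraries. In both genes the groups overlapped and the GF library of pair C was the lowest of all. The log2 fold changes were 0.53 ± 0.44 (SE, adjusted p = 0.425) for Gsto1 and 0.80 ± 0.45 (adjusted p = 0.249) for Gstp1, of whose windows 52.8% are shared with Gstp2 and a pseudogene. Of the 7 mu-class genes, all tested, 4 had a positive and 3 a negative fold change, from -0.17 (Gstm7) to 1.17 (Gstm3). Gstm1 had 0.68 ± 0.54 (adjusted p = 0.399), Gstm5 1.02 ± 0.40 (adjusted p = 0.139) and Gstm2 1.06 ± 0.53 (adjusted p = 0.201). Of the alpha class, Gsta4, which conjugates lipid peroxidation products, had 1.08 ± 0.72 (adjusted p = 0.313), while Gsta1 and Gsta3 were below the filter with -0.11 and -0.44. Of the 100-base windows of Gsta1, 81.8% are shared with other genes. Gstk1, the kappa-class enzyme of mitochondria and peroxisomes, had the largest positive fold change of the tested members, 2.02 ± 0.89 (adjusted p = 0.165), with 9.19 to 23.2 CPM in CV libraries and 0 to 14.7 CPM in GF libraries.

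No sulfotransferase or carboxylesterase was called with or without the block. Sult1d1, which sulfates catecholamines in mouse, had -0.12 ± 0.41 (SE, adjusted p = 0.851), Sult1b1, which sulfates thyroid hormones, had 0.997 ± 0.54 (adjusted p = 0.226), and the hydroxysteroid sulfotransferase Sult2b1 -0.04 ± 0.55 (adjusted p = 0.970). Sult4a1, below the filter, had 0.268 to 1.66 CPM in CV libraries and 2.49 to 7.80 CPM in GF libraries, without overlap (log2 fold change -1.90, adjusted p = 0.0712 in the fit over all genes with a mean of at least 1 CPM). The share of all genes under the filter without overlap was not counted. Ces2e, of the intestinal carboxylesterase subfamily that hydrolyses ester drugs, had 421, 67.6, 46.2 and 86.6 CPM in CV libraries of pairs A to D, against 119.7, 71.6, 14.1 and 97.5 CPM in GF libraries. The CV library of pair A was the highest by far, the other libraries overlapped, and the log2 fold change was 0.81 ± 0.70 (adjusted p = 0.437). Ces1d had 0.55 ± 0.36 (adjusted p = 0.304) and Ces2a 0.22 ± 0.44 (adjusted p = 0.748).

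The summed signal of a class includes any called genes in it. Of the 43 P450 genes 6 were called lower, 4 of them Cyp2 genes, and sums without them were not formed. A lower P450 or Cyp2 sum is therefore no reading of the genes not called. Cyp4b1 alone held 20.5% of the P450 sum over all libraries, with means of 86.1 CPM in CV and 356 CPM in GF libraries. The 43 P450 genes summed to 1219, 593, 666 and 786 CPM in CV libraries of pairs A to D, against 1878, 1161, 1331 and 998 CPM in GF libraries, and each pair was lower in CV. The 22 Cyp2 genes summed to 357 ± 103 CPM in CV libraries and 678 ± 170 CPM in GF libraries (SD, n = 4 each), from 252 to 497 CPM against 517 to 901 CPM, without overlap. The other classes overlapped widely. Gst genes summed to 2600 ± 808 CPM in CV and 1903 ± 875 CPM in GF libraries, Ugt genes to 452 ± 235 CPM in CV and 321 ± 102 CPM in GF, Sult genes to 129 ± 88.8 CPM in CV and 107 ± 49.3 CPM in GF, and Ces genes to 394 ± 247 CPM in CV and 264 ± 110 CPM in GF. All members together summed to 4393 ± 1586 CPM in CV libraries and 3938 ± 1328 CPM in GF libraries.

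**Figure D3:**
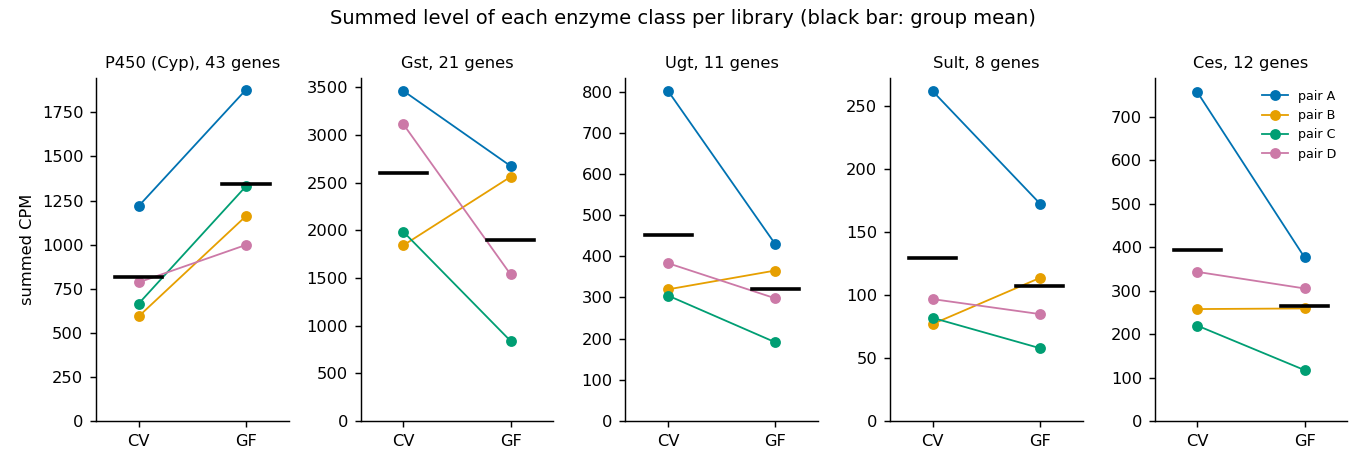
Summed CPM of each enzyme class (vertical axes from 0) in CV and GF libraries, with lines joining littermates and black bars for group means. The P450 sum is lower in CV in every pair, at 816 ± 280 CPM against 1342 ± 382 CPM in GF (SD, n = 4 each), whereas in each other class the pairs run in both directions. The P450 sum includes the 6 P450 genes called lower.

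The sensors of this pathway were not called in the fit without pairs. Of 21 listed nuclear receptors and sensors, 17 were tested and 0 called. Ahr, the aryl hydrocarbon receptor, averaged 12.3 ± 1.93 CPM in CV libraries and 5.93 ± 3.83 CPM in GF libraries (SD, n = 4 each), with a log2 fold change of 1.29 ± 0.55 (adjusted p = 0.158). Nr1i2, which encodes PXR, averaged 27.1 ± 3.52 CPM in CV and 23.6 ± 8.91 CPM in GF libraries (0.28 ± 0.33, adjusted p = 0.575). Nfe2l2, which encodes NRF2, averaged 191 ± 73.2 CPM in CV and 122 ± 30.6 CPM in GF libraries (0.60 ± 0.33, adjusted p = 0.235). Nr1i3, which encodes CAR, was below the filter, with a mean of 10.54 CPM in CV and 5.59 CPM in GF libraries. With the block, the receptor partner Rxra, the vitamin D receptor Vdr and Esrra were called higher, with adjusted p of 0.0336, 0.0494 and 0.0329. Of 17 tested NRF2 target genes 0 were called without the block, and with it the pentose phosphate enzyme Tkt was called higher (0.0346) and Osgin1 lower (0.0205). These block calls stand beside 8.08% of all tested genes called higher and 5.02% called lower in the same fit. The epoxide hydrolase Ephx1, which is on that list and on the list of first-phase enzymes, had a log2 fold change of 0.84 ± 0.28 (adjusted p = 0.0968).

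Several genes that supply the enzymes lay near the threshold. Por, the reductase that passes electrons from NADPH to all microsomal P450s, had 191, 124, 141 and 159 CPM in CV libraries of pairs A to D, against 413, 261, 365 and 271 CPM in GF libraries. Every CV library lay below every GF library. Its log2 fold change was -1.08 ± 0.30 (SE, adjusted p = 0.0556), and it was called with the block (0.0270). Papss2, which makes the sulfate donor of the sulfotransferases, averaged 20.7 ± 9.67 CPM in CV libraries and 53.9 ± 23.3 CPM in GF libraries (SD, n = 4 each), with -1.35 ± 0.37 (adjusted p = 0.0551) and 0.0202 with the block. The glutathione synthetase Gss had 1.08 ± 0.39 (adjusted p = 0.115) and 0.0373 with the block. Of 20 tested genes of cofactor supply, 36 other first-phase enzymes and 11 other conjugating enzymes, 0 were called without the block. With it 1, 2 and 2 were called higher (Gss, then Aldh1b1 and Maoa, then Mgst1 and Mettl7b) and 2, 3 and 0 lower (Por and Papss2, then Aldh1a1, Aldh3b1 and Akr1b7). Over all tested genes that fit called 8.08% higher and 5.02% lower. The aldehyde dehydrogenase Aldh3b1 had -1.11 ± 0.31 (adjusted p = 0.0551) and the retinal dehydrogenase Aldh1a1 -1.58 ± 0.48 (adjusted p = 0.0778). The microsomal glutathione transferase Mgst1 had 1.67 ± 0.58 (adjusted p = 0.108) and Mettl7b 1.15 ± 0.39 (adjusted p = 0.102).

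Of 21 tested transporters, 0 were called higher and 2 lower in CV, beside 1.16% and 3.76% of all tested genes. The prostaglandin transporter Slco2a1 averaged 33.9 ± 13.4 CPM in CV libraries and 189 ± 87.8 CPM in GF libraries (SD, n = 4 each), with a log2 fold change of -2.42 ± 0.37 (adjusted p = 0.00577). The peptide transporter Slc15a1 averaged 8.21 ± 3.03 CPM in CV and 45.9 ± 22.8 CPM in GF libraries (-2.36 ± 0.39, adjusted p = 0.00587). With its CV mean under 10 CPM, Slc15a1 passed the filter mainly through the GF libraries, so a difference was to be found. The drug exporter gene Abcb1a averaged 47.3 ± 5.54 CPM in CV and 87.5 ± 28.7 CPM in GF libraries (-0.83 ± 0.29, adjusted p = 0.105). With the block, Slco2b1 and Slc22a5 were called higher, and Abcc3 and Abcc5 were called lower in addition to the 2 genes above. The same fit called 8.08% of all tested genes higher and 5.02% lower.

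Some lists of markers of other cell types differed between the groups and others did not. Over all tested genes 1.16% were called higher and 3.76% lower, and 8.08% and 5.02% with the block. All 24 enteroendocrine markers were tested and negative, 16 were called lower in CV (19 with the block), and their summed level was 12046 to 29462 CPM in CV libraries, against 47800 to 112902 CPM in GF libraries. Of 20 tested markers of mature enterocytes 11 had a positive and 9 a negative fold change, with a median of 0.27, beside 0.32 over all tested genes. In this list 0 were called higher and 3 lower (Sis, Slc15a1 and Krt20), and 1 and 4 with the block, with summed levels of 1779 to 5667 CPM in CV and 2861 to 6698 CPM in GF libraries. Of these, Slc15a1 had a CV mean under 10 CPM and passed the filter mainly through the GF libraries. All 13 tested stem-cell markers had a positive fold change (median 1.35), 1 was called higher (Lgr5) and 0 lower, and 6 higher with the block, with sums of 5608 to 10954 CPM in CV and 1082 to 5826 CPM in GF libraries. Of 13 tested goblet-cell and 9 tested tuft-cell markers 0 were called, and of 11 tested Paneth-cell markers 1 was called higher (Mptx2). Of the tuft-cell markers 8 were negative and 1 positive (median -0.79). Goblet-cell markers had 5 negative and 8 positive (median 0.20), and Paneth-cell markers 2 and 9 (median 0.87). No list held a marker at 0 in every library. Of 6 tested hepatocyte and pancreas markers, a list that also holds the member Cyp2e1, Serpina1a and Serpina1b were called lower, and 3 genes with the block. Of 17 leukocyte markers 0 reached the filter, with sums of 13.1 to 34.0 CPM in CV and 23.1 to 36.3 CPM in GF libraries. Of 13 endothelial and stromal markers 2 were tested, both negative, and 1 was called lower. This was Pecam1, the gene of the gated-out CD31, at 4.999 ± 3.34 CPM in CV and 19.9 ± 5.69 CPM in GF libraries (SD, n = 4 each). With its CV mean under 10 CPM, Pecam1 passed the filter mainly through the GF libraries, so a difference was to be found. The summed list had 7.47 to 47.5 CPM in CV and 42.7 to 74.6 CPM in GF libraries. The part of these cell types in the levels of the enzyme genes was not tested.

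**Figure D4:**
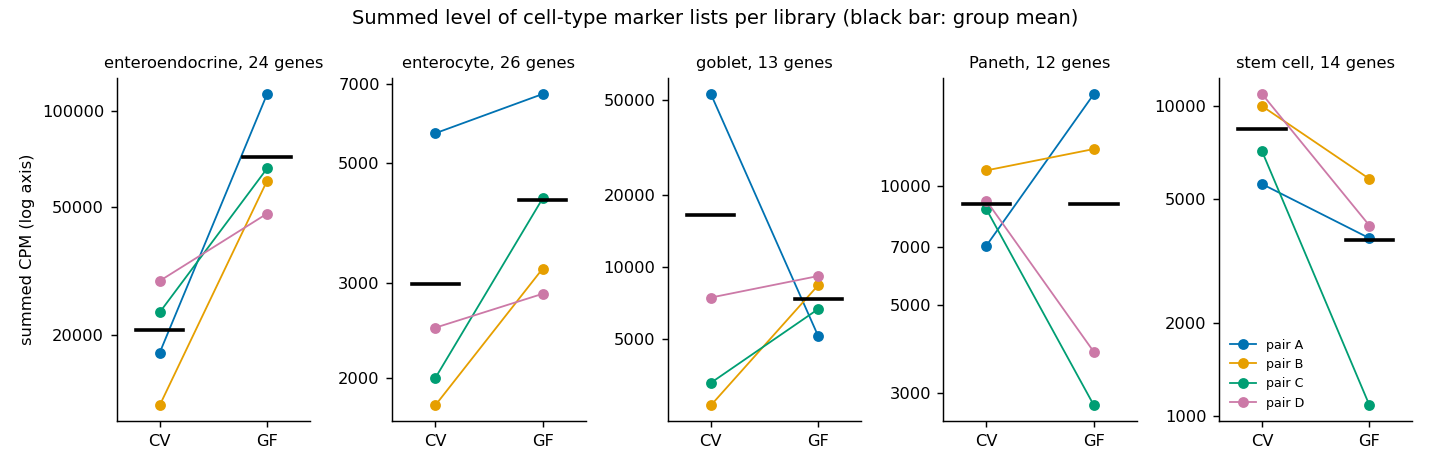
Summed TMM-scaled CPM of marker lists for 5 epithelial cell types (vertical log axes) in CV and GF libraries, with lines joining littermates and black bars for group means. The enteroendocrine sums do not overlap (12046 to 29462 CPM in CV, 47800 to 112902 CPM in GF), and the CV library of pair A has the highest goblet-cell sum, 52800 CPM.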

How the data were processed

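RNA from 10 ng per sorted sample was made into libraries with SMARTer Ultra Low and Nextera XT kits, which do not mark strand, and was sequenced as 100 bp single-end reads, per the labels' protocols. The sequencing lane of a library is not given in the sources. The submitters' processing notes list the build mm10, the trimmer Trimmomatic 0.36, the aligner STAR 2.4.2a, DESeq2 1.12.4 and R 3.3.1. The authors' series text also names Salmon and edgeR, with transcripts kept from 10 CPM. The table deposited by the authors holds, per gene, a signal they had normalized, and not raw counts: 99.9% of the 82508 values under 50 steps in 27909 genes with 1 transcript were whole multiples of a step per library (tolerance 0.02), against 30.4% of 54215 values in 20149 genes with several. Whole reads could not be recovered, so a test for continuous values took the place of the count test first chosen.

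Of 48440 genes, 48058 were matched to GENCODE M21 (GRCm38) and 10128 were at 0 everywhere. TMM factors (trims of 30% and 5%) were implemented in R 4.3.3. CV and GF libraries, 4 each, were tested two-sided in limma 3.58.1, with a mean-variance trend and robust moderation, on log2(CPM + 0.5), which understates the changes of low genes, and p-values were adjusted by Benjamini-Hochberg over all tested genes. The procedure was tested on simulated data. The labels name the littermate pair, so the numbers pair the samples: deviations from the group means correlated at 0.142 (A), -0.156 (B), 0.307 (C) and -0.0063 (D) within pairs. The pair was fitted as a block as an alternative. Other alternatives were the scaling, the pseudocount, the filter, array quality weights and leaving out libraries. Genes were named by a rule: members called with or without the block, the 3 most abundant of each family, the called or else 2 lowest-p genes of each pathway list, and Cyp1a1, Cyp1b1, Ahr, Nr1i2, Nr1i3, Nfe2l2 and Abcb1a. Further members were chosen after their values were seen. The members and lists were chosen with earlier results of these data known. Windows of 100 bases shared between transcripts were counted on both strands. The p-values set the group difference against the spread between libraries, 1 per animal. Differences between animals, sorts and library preparations cannot be told apart in that spread.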

Additional observations from a re-analysis of the deposited data

Results flagged for a closer look

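In groups of 4 libraries, a value was picked out when its gap to the nearest other exceeded Dixon's limit, a fixed share of the group's range. This held for 8 of the 98 groups examined (8.16%), and chance picks about 1 in 20 where values are normal and groups independent. These groups share the same libraries, and Ugt2b34 held 64.4% of the Ugt2 sum, so they are not independent. All 8 concerned the CV library of pair A or the GF library of pair C. The CV library of pair A was far above the other CV libraries for Cyp4f40 (94.4 CPM), Ugt2a3 (49.6 CPM), the summed Cyp3 genes (67.0 CPM) and the summed P450 genes outside the Cyp2, Cyp3 and Cyp4 families (71.7 CPM). The GF library of pair C was far below the other GF libraries for Gstm1 (14.9 CPM), Ugt1a7c (18.3 CPM), Ugt2b34 (45.0 CPM) and the summed Ugt2 genes (60.1 CPM).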

How the results depend on the processing

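Of 578 values of the 34 tested named members under the alternatives, 517 kept their direction and side of the threshold, 20 lost a call, 13 gained one and 28 changed sign, the sign changes all in members called neither in the report nor under that alternative. With 1 library left out, the log2 fold change ran from -0.40 to 0.59 for Cyp3a13, -0.058 to 0.85 for Cyp4f14, -0.34 to 0.31 for Cyp27a1, -0.018 to 0.93 for Gstm1, -0.47 to 0.17 for Sult1d1, -0.74 to 0.30 for Sult2b1 and -0.20 to 0.47 for Ces2a. Without the CV library of pair A and the GF library of pair C it was -0.53 for Cyp3a13, -0.24 for Cyp4f14, -0.21 for Cyp4f16, -0.19 for Gsta4, -0.14 for Gstm1, -0.0012 for Ugt1a7c, -0.20 for Ugt2a3, -0.54 for Ces2e and -0.51 for Ces2a. It was -0.17 for Cyp27a1 and -0.0099 for Ces2a with library-size scaling, and -0.034 and -0.033 for these genes with the weights. The count of members called higher, 0, was 1 with library-size and with upper-quartile scaling (Gstt3), 2 with array quality weights (Gstt3 and Ugt2b35), 3 with the replicate block of the paired littermates, 2 with that block and a mean of at least 1 CPM together (an alternative chosen after seeing the data), and 0 to 2 with 1 library left out. The count called lower, 7, was 2 to 7 with 1 library left out, the lowest without the CV library of pair B, with 4 without the GF library of pair A, and was 7 with the block, 5 with no filter (without Cyp2f2 and Cyp2d26) and 9 with the weights (with Gstt1 and Ugt1a6a). Over all genes, the 117 called higher became 263 with upper-quartile scaling, 45 with no filter, 812 with the replicate block, 765 with the weights, 434 with the block and the lower filter, 259 without the CV library of pair A and the GF library of pair C, and 14 to 445 with 1 library left out. The 378 called lower became 608 with the weights and 177 to 456 with 1 library left out. The share of higher genes among all calls was 23.6%, against 39.2% with upper-quartile and 19.2% with library-size scaling, 12.6% with no filter, 61.7% with the replicate block, 55.7% with the weights, 44.4% with the block and the lower filter, 34.4% without the CV library of pair A and the GF library of pair C, and 5.11% to 49.4% with 1 library left out. The cause of these shifts was not tested. The replicate block changed no call of a named member other than Gstt3, Ugt2b35 and Cyp4f40. The 43 members under the 10 CPM filter were tested only in the fits with the lower filter or none. The smallest library had 6209041 approximate reads.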
